A study of Homo sapiens with 12 samples.

Results

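The lysosomal genes described here are 45 genes that encode hydrolases, membrane proteins, the proton pump and a few regulators of the lysosome. They were chosen by name as a list of known lysosomal genes, and all 45 were matched among the 61541 gene identifiers of the deposited tables. The study measured polyadenylated RNA of IMR90 cells, a line of primary human lung fibroblasts labelled wild type, after doxorubicin, a DNA-damaging drug used to bring cells into senescence. The 4 groups were 250 nM doxorubicin on a 2 kPa hydrogel, 250 nM on plastic, 100 nM on the hydrogel and 100 nM on plastic, with 3 libraries each. Every group had the drug for 24 h and was then kept in culture for at least 8 days. Doses are in nM in the titles but in µM in the treatment protocol, and the soft substrate is a hydrogel in the titles but a PDMS coat in the growth protocol. The wording of the titles is kept. Cells without the drug were not analysed here, so every comparison is between drug-treated groups. IMR90 is 1 line, and nothing states that the libraries came from separate cultures, so p-values measure only the spread between these libraries. Proteins, acidity and enzyme activity were not measured.

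Lysosomes are acidic compartments that break down proteins, sugars, lipids and worn-out organelles. The V-ATPase pumps protons across their membrane, soluble hydrolases work in the acid lumen, and membrane proteins protect the limiting membrane and move products out. TFEB and TFE3 are transcription factors that bind an E-box element shared by many of these genes, and mTORC1 at the lysosomal surface keeps them in the cytoplasm when nutrients are plentiful. Senescent cells are known for an enlarged lysosomal compartment, which underlies the common beta-galactosidase stain.

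The 250 nM libraries held 2229069 to 2730309 expected counts and the 100 nM libraries 5887056 to 7351916, so the ranges did not overlap. No batch is named in the labels, and dose and library set cannot be told apart. In 2 libraries a lower share of counts fell on ribosomal repeat loci, 13.2% in gel 250 nM replicate 1 and 14.3% in plastic 100 nM replicate 1, against 24.2 to 30.7% in the other 10. Gel 250 nM replicate 1 also had the highest mitochondrial share of protein-coding counts, 8.11%, against 2.58 to 5.12% in the other libraries. Fibroblast markers were abundant, with a summed level of 3883 to 6048 TPM (a level scaled to transcript length and library size). FN1 and VIM were the highest of them, at up to 3738 and 2037 TPM. Markers of leukocytes, which are rich in cathepsins such as CTSS, summed to 0.04 to 3.61 TPM, and CD163, TYROBP, AIF1, ITGAM, C1QA and CD3E were at 0 in every library. The highest leukocyte marker was FCER1G, at up to 3.51 TPM. Endothelial markers summed to 1.81 to 8.48 TPM with CLDN5 at 0 throughout, and the highest was TEK, at up to 8.32 TPM. Epithelial markers summed to 37.4 to 162 TPM with KRT5, SFTPC and SCGB1A1 at 0 throughout, and pericyte markers to 14.02 to 30.13 TPM. The highest epithelial markers were the keratins KRT18, KRT19 and KRT8, at up to 104.8, 39.5 and 36.4 TPM. EPCAM and CDH1 reached at most 1.23 and 1.53 TPM. Fewer cells of a type and less RNA per cell cannot be told apart in these bulk libraries.

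The levels of the 45 genes, averaged over 12 libraries, spanned 0.175 to 2788 TPM with a median of 17.1 TPM. CD63, a tetraspanin of late endosomes, lysosomes and exosomes, was the highest and alone made up 53.6% of the summed TPM of the 45 genes. ATP6V0C, the proton-carrying ring subunit of the pump, followed with 606 TPM, and CTSB, the cysteine protease cathepsin B, with 255 TPM. The highest 3 genes held 70.1% of the summed TPM and the highest 10 held 88.2%. By role, the 7 membrane proteins held 57.5% of the summed TPM, the 7 proton pump genes 19.4%, the 8 proteases 11.0%, the 7 genes of lipid handling 6.53%, the 3 regulators 2.91%, the 10 glycosidases 2.17% and the 3 sulfatases 0.422%. Among membrane proteins CD63 was followed by SCARB2, the carrier of glucocerebrosidase to the lysosome, at 91.8 TPM, and by LAMP1, a heavily glycosylated coat protein, at 60.3 TPM. LAMP2 averaged 34.2 TPM and the cholesterol exporter NPC1 10.3 TPM. The calcium channel MCOLN1 averaged 3.83 TPM and CLN3, the protein mutated in juvenile Batten disease, 3.24 TPM. Among proteases CTSB was followed by CTSL at 138 TPM and the aspartic protease CTSD at 109 TPM, while the collagen-degrading CTSK averaged 25.9 TPM and CTSS 3.42 TPM. MAN2B1, an alpha-mannosidase, led the glycosidases at 43.3 TPM, and IDUA, the alpha-iduronidase, was the lowest of all 45 genes at 0.175 TPM. IDUA was listed at 0 in all 6 libraries at 250 nM and in gel 100 nM replicate 1. Of the regulators, GRN, which encodes progranulin, averaged 144 TPM and TFE3 6.54 TPM. TFEB averaged 0.749 TPM, and its 12 libraries overlapped between all groups. The plot of levels by library shows that these orders of magnitude between genes were much wider than the spread between libraries of 1 gene.

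**Figure D1:**
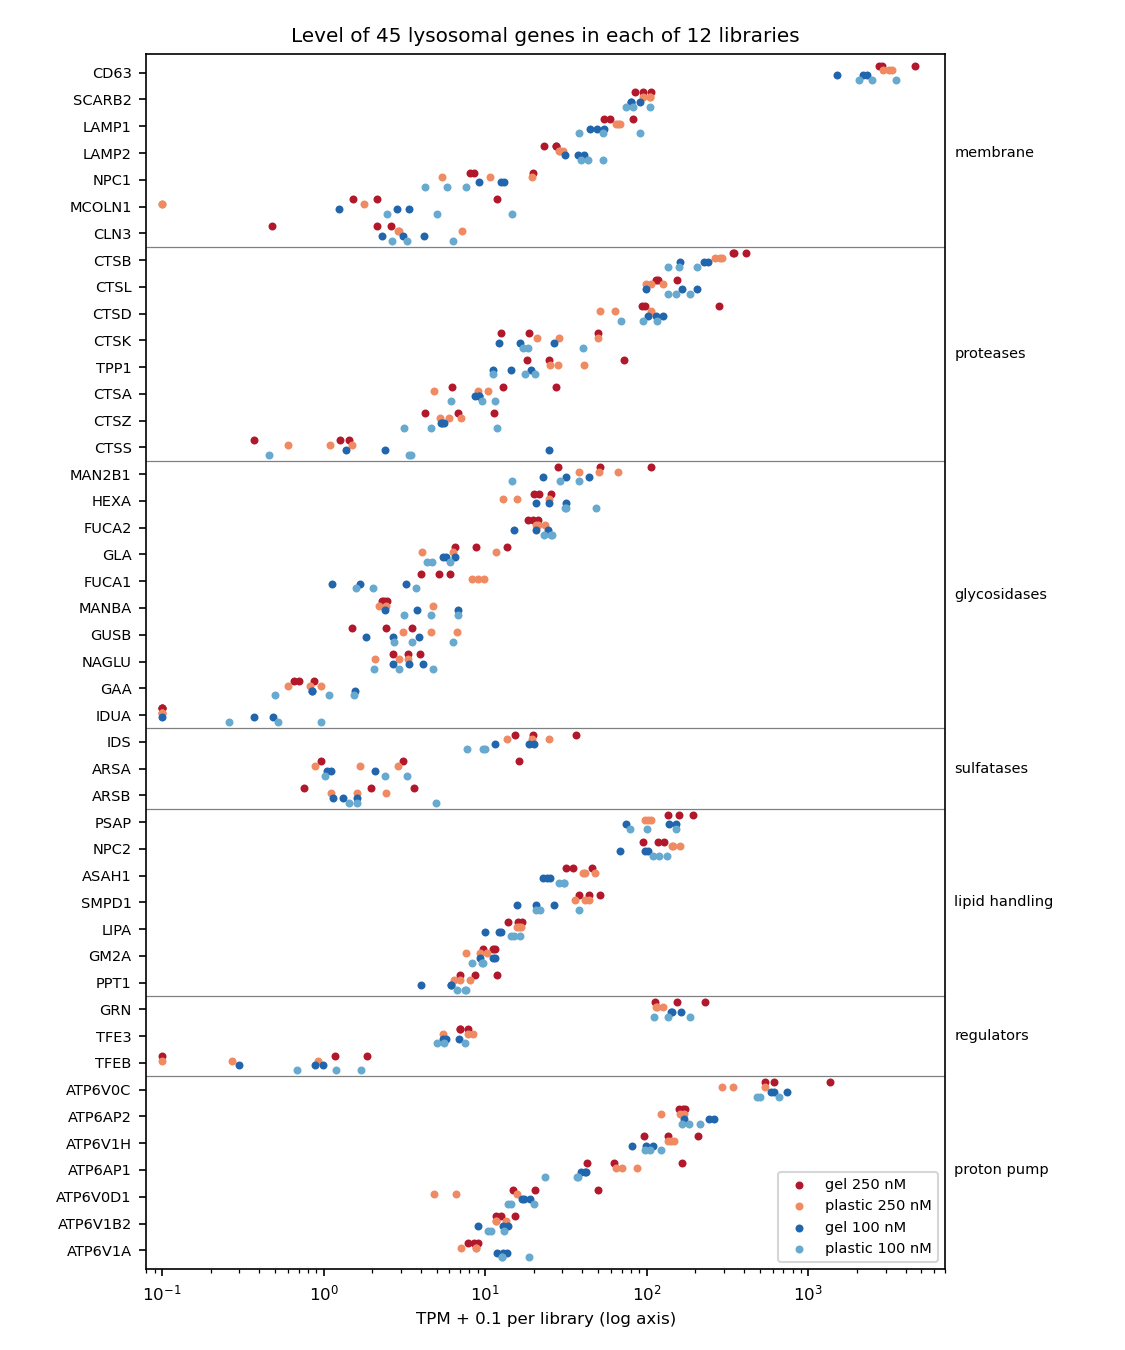
TPM + 0.1 of each of the 45 lysosomal genes (rows, grouped by role) in each of the 12 libraries on a log axis, with 1 point per library coloured by group. CD63 lies far to the right of every other gene, and IDUA and TFEB are the only genes averaging under 0.8 TPM.

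The summed level of all 45 genes was highest in 1 library. As a share of protein-coding counts they took 1.02, 0.759 and 0.781% in gel 250 nM replicates 1, 2 and 3, and 0.731, 0.667 and 0.675% in plastic 250 nM. They took 0.637, 0.658 and 0.691% in gel 100 nM and 0.675, 0.566 and 0.590% in plastic 100 nM. By this share the gel 250 nM libraries were all above the other 9 libraries, with replicate 1 far above the rest. The other 3 groups overlapped at their edges. In summed TPM, gel 250 nM had 8605, 5150 and 5287 and plastic 250 nM 5583, 5322 and 4952. Gel 100 nM had 3702, 4534 and 4707 and plastic 100 nM 6056, 4364 and 4160. By that measure gel 250 nM replicates 2 and 3 lay among the plastic libraries.

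Promoters were examined for the E-box because TFEB and TFE3 are among the regulators. RefSeq windows on GRCh38.p14, from 250 bases before to 50 after a gene's start, were matched for 32 of the 45 genes. The letters CACGTG, which read the same on both strands, were present in the windows of 9 of these 32 genes, or 28.1%, against 8.78% of 27305 genes with a window. These were CD63, LAMP1, MCOLN1, CLN3, CTSA, CTSD, GAA, ARSB and ATP6V0D1. The longer form TCACGTGA, which contains the shorter one, was present in 6 of the 32 genes, or 18.8%, against 1.18% of all genes. The element is known as the CLEAR motif of lysosomal genes, so this share is not independent of the choice of genes. The windows of 4 genes with the element and of 1 without it are shown because their RNA levels recur below. Capitals mark CACGTG.
MCOLN1 (chr19:7522374-7522673, plus strand): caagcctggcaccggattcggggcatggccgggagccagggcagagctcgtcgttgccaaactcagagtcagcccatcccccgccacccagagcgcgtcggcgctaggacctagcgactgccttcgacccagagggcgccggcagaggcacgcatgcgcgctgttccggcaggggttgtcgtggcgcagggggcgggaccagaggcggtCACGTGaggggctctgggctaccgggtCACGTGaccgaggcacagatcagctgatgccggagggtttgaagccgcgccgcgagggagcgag
ATP6V0D1 (chr16:67481108-67481407, minus strand): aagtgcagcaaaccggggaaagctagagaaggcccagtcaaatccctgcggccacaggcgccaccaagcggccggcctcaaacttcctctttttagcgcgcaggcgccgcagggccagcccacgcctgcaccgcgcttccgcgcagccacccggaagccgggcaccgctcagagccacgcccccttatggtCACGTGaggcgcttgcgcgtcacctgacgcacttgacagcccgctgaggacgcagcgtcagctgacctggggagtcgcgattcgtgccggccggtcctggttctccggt
CTSD (chr11:1763878-1764177, minus strand): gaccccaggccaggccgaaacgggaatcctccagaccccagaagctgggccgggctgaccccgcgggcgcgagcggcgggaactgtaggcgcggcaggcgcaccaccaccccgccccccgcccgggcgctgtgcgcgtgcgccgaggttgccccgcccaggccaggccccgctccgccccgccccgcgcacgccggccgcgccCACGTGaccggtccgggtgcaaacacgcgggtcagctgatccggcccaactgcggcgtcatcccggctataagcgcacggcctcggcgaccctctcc
LAMP1 (chr13:113296989-113297288, plus strand): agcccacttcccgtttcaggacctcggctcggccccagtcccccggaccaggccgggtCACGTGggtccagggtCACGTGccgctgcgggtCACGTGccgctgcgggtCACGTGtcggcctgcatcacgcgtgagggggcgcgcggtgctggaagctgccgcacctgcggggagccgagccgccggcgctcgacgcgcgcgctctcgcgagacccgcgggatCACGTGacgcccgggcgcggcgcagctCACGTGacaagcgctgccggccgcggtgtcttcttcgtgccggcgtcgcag
FUCA1 (chr1:23868241-23868540, minus strand): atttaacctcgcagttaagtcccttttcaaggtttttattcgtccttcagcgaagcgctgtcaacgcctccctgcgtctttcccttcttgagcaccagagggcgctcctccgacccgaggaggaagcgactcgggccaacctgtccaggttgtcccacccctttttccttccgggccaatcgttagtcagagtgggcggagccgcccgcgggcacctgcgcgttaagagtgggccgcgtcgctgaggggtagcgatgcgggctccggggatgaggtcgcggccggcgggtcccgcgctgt

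The LAMP1 window held 6 copies, 4 of them in a cluster that began at -192, -176, -159 and -142 from the start and 2 close to it at -28 and -1. MCOLN1 held copies at -41 and -14, ATP6V0D1 1 copy at -59 and CTSD 1 copy at -47. In the FUCA1 window the letters were not found, which says nothing about binding elsewhere. A match is a description of these letters and not of a bound site.

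The first question was how the 45 genes differed between 250 and 100 nM doxorubicin on each substrate. On both substrates the genes that rose included CTSB, the acid ceramidase ASAH1, the fucosidase FUCA1 and the pump accessory subunit ATP6AP1. On plastic the cholesterol exporter NPC1 also rose and the catalytic pump subunit ATP6V1A fell. On the gel CD63, the acid sphingomyelinase SMPD1 and the palmitoyl thioesterase PPT1 also rose. These calls come from edgeR's quasi-likelihood test on expected counts, fitted on 12329 genes with enough counts and called at a Benjamini-Hochberg adjusted p under 0.05 over all of them. Of the 45 genes, 43 passed the filter on low counts, and TFEB and IDUA did not. Values below are CPM, counts scaled to library size times a TMM normalisation factor of each library (0.9102 to 1.146). They are not scaled to transcript length, so they compare libraries and not genes.

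On plastic 6 of the 43 genes were called, 5 higher and 1 lower at 250 nM, or 13.95%, where 8.61% of all genes tested were called. Of all genes, 4.09% were called higher and 4.52% lower. On the gel 7 of the 43 were called, all higher, or 16.28%, where 13.8% of all genes were called, 6.92% higher and 6.89% lower. The share called on the gel was therefore close to that of all genes. The median log2 change of the 43 genes was 0.23 on plastic and 0.44 on the gel, against -0.03 and -0.02 over all genes. The 2 groups did not overlap in 15 of the 43 genes on plastic and in 15 on the gel, or 34.9% each, where 35.8% of all genes did not overlap in either comparison. Other measures also moved with dose. The mitochondrial share of protein-coding counts was 4.24 to 8.11% at 250 nM and 2.58 to 4.06% at 100 nM. The summed epithelial markers, mainly KRT18, KRT19 and KRT8, were at 95.1 to 114 TPM in gel 250 nM and 37.4 to 97.3 in gel 100 nM. On plastic they were at 79.0 to 162 TPM at 250 nM and 49.0 to 87.1 at 100 nM. The summed pericyte markers were at 17.1 to 27.95 TPM in gel 250 nM and 14.9 to 25.3 in gel 100 nM, and at 26.3 to 30.1 TPM in plastic 250 nM and 14.02 to 17.3 in plastic 100 nM. Their part in the dose differences was not tested.

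Among the proteases, CTSB was called on both substrates. It measured 803, 1039 and 1102 CPM in the gel 250 nM libraries, 646, 786 and 744 in plastic 250 nM, 409, 574 and 612 in gel 100 nM and 426, 342 and 381 in plastic 100 nM. Every 250 nM library exceeded every 100 nM library. The fitted log2 change was 0.88 (SE 0.20, 1.85-fold, adjusted p 0.0139 by edgeR) on the gel and 0.92 (SE 0.20, 1.89-fold, adjusted p 0.0151) on plastic. The other 7 proteases were not called, and their log2 changes ran from -3.23 to 0.96 on the gel and from -1.52 to 1.06 on plastic. The lowest in both was CTSS, an elastin-degrading cathepsin of antigen-presenting cells. It had 8, 4 and 1 counts in gel 250 nM, 5, 2 and 2 in plastic 250 nM, 230, 15 and 38 in gel 100 nM and 33, 5 and 37 in plastic 100 nM. Its log2 difference was -3.23 (SE 1.10, adjusted p 0.0682) on the gel, where replicate 1 at 100 nM stood far above the other libraries and the value without it was -1.11, and -1.52 (SE 1.21, adjusted p 0.465) on plastic. TPP1, a tripeptidyl peptidase, had a log2 difference of 0.96 on the gel (adjusted p 0.069) and 1.06 on plastic (adjusted p 0.062).

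Among the glycosidases, FUCA1 (chr1:23845077-23868294, minus strand, GRCh38 with GENCODE release 29) had the largest called rise. FUCA1 removes fucose from glycoproteins and glycolipids. It measured 11.9, 11.7 and 8.43 CPM in gel 250 nM, 15.7, 20.7 and 19.6 in plastic 250 nM, 2.18, 6.19 and 3.14 in gel 100 nM and 3.34, 7.59 and 2.85 in plastic 100 nM. The dose groups were apart on each substrate, and plastic 250 nM was the highest of the 4 groups in all 3 libraries. The log2 change was 1.46 (SE 0.44, 2.74-fold, adjusted p 0.0436) on the gel and 2.02 (SE 0.43, 4.05-fold, adjusted p 0.0144) on plastic. The other 8 tested glycosidases were not called, and their changes had both signs. The glycosidase sum, at 134, 134 and 145 CPM in gel 250 nM, 144, 140 and 139 in plastic 250 nM, 111, 128 and 111 in gel 100 nM and 145, 126 and 127 in plastic 100 nM, overlapped between doses on plastic.

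Among the genes of lipid handling, all 7 had a positive log2 difference on both substrates, of which 3 were called on the gel and 1 on plastic. Of all genes tested, 49% were positive on the gel and 48.01% on plastic. ASAH1, which cleaves ceramide to sphingosine, measured 81.6, 66.0 and 57.7 CPM in gel 250 nM and 65.8, 85.0 and 74.2 in plastic 250 nM. It measured 43.4, 36.2 and 42.4 CPM in gel 100 nM and 44.44, 44.60 and 44.97 in plastic 100 nM, so the dose groups were apart on both substrates. Its log2 change was 0.76 (SE 0.19, 1.69-fold, adjusted p 0.0184) on the gel and 0.75 (SE 0.18, 1.68-fold, adjusted p 0.0258) on plastic. SMPD1, which makes that ceramide from sphingomyelin, measured 51.9, 74.3 and 61.1 CPM in gel 250 nM, 54.6, 57.7 and 51.1 in plastic 250 nM, 21.2, 26.1 and 33.7 in gel 100 nM and 43.1, 29.3 and 25.0 in plastic 100 nM. It rose on the gel by 1.20 log2 units (SE 0.24, 2.30-fold, adjusted p 0.0087), and on plastic the difference was 0.74 (adjusted p 0.070) with groups that did not overlap either. The sphingomyelinase call on the gel held in all 23 alternative analyses. PPT1, which strips palmitate from proteins, measured 21.5, 15.5 and 17.7 CPM in gel 250 nM, 14.1, 13.1 and 13.7 in plastic 250 nM, 7.98, 11.8 and 10.3 in gel 100 nM and 12.1, 12.7 and 14.1 in plastic 100 nM. It rose on the gel by 0.86 (SE 0.24, 1.82-fold, adjusted p 0.0324), and its plastic groups overlapped. PPT1 shares 23.4% of its exon bases with CAP1 on the opposite strand, a gene with a mean of 3772 counts, and whether the counting used strand is not given in the sources used here, so its counts are uncertain.

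Among the membrane proteins, CD63 was called on the gel and NPC1 on plastic. CD63 measured 1803, 1373 and 1260 CPM in gel 250 nM, 1330, 1488 and 1395 in plastic 250 nM, 714, 910 and 952 in gel 100 nM and 1194, 1031 and 877 in plastic 100 nM. The dose groups were apart on each substrate, with the lowest levels in gel 100 nM replicate 1 and plastic 100 nM replicate 3. The log2 change was 0.78 (SE 0.20, 1.72-fold, adjusted p 0.0195) on the gel, and the difference on plastic was 0.44 (adjusted p 0.168). NPC1, which passes cholesterol out of the lysosome, measured 47.3, 34.0 and 31.2 CPM in gel 250 nM, 34.8, 27.2 and 23.6 in plastic 250 nM, 35.0, 22.1 and 26.4 in gel 100 nM and 13.3, 13.2 and 16.5 in plastic 100 nM. Plastic 100 nM was the low group, below every library of the other 3 groups. On plastic NPC1 rose by 0.99 (SE 0.25, 1.99-fold, adjusted p 0.0301). SCARB2 and CLN3 had the largest negative log2 differences on the gel after CTSS, -0.33 (SE 0.16, adjusted p 0.181) and -1.22 (SE 0.66, adjusted p 0.225), and neither was called. Without gel 250 nM replicate 1 that of CLN3 was -0.67.

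MCOLN1 had the largest negative log2 difference on plastic, at few counts. It had 19, 2 and 3 counts in gel 250 nM, 0, 2 and 0 in plastic 250 nM, 10, 5 and 14 in gel 100 nM and 60, 17 and 9 in plastic 100 nM. Plastic 250 nM was thus the low group and plastic 100 nM replicate 1 the high library. The summed counts per scaled library gave a ratio of 0.0665 for plastic 250 nM over plastic 100 nM, with an exact 95% interval of 0.00792 to 0.247 that covers counting error only. The fitted log2 difference of -3.70 (SE 1.22, adjusted p 0.0729) rests on these low counts and was not called. Of the sulfatases none was called in either comparison. The iduronate sulfatase IDS had a log2 difference of 1.13 on plastic (SE 0.35, adjusted p 0.0582), and ARSB, the arylsulfatase B gene, -1.45 (SE 0.54, adjusted p 0.108), which was -0.69 without plastic 100 nM replicate 1. IDS shares 16.5% of its exon bases with AC244197.3 on the same strand, which had a mean of 374 counts, so reads could be split between them.

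Among the proton pump genes, ATP6AP1 (chrX:154428632-154436516, plus strand) rose and ATP6V1A fell. ATP6AP1, an accessory protein needed to assemble the pump, measured 268, 78.2 and 109 CPM in gel 250 nM, 134, 118 and 113 in plastic 250 nM, 65.5, 67.6 and 66.3 in gel 100 nM and 52.8, 39.8 and 57.5 in plastic 100 nM. All 250 nM libraries were above all 100 nM libraries, and gel 250 nM replicate 1 was the highest by a wide margin. The log2 change was 1.20 (SE 0.34, 2.29-fold, adjusted p 0.0350) on the gel and 1.28 (SE 0.35, 2.43-fold, adjusted p 0.0368) on plastic. ATP6V1A, the ATP-hydrolysing subunit, measured 41.0, 40.8 and 41.7 CPM in gel 250 nM, 38.1, 42.3 and 35.3 in plastic 250 nM, 45.5, 53.1 and 56.3 in gel 100 nM and 73.8, 60.3 and 55.1 in plastic 100 nM. The 250 nM libraries were all below the 100 nM libraries, and on plastic the gene fell by 0.71 on the log2 scale (SE 0.18, 1.64-fold lower, adjusted p 0.0297). On the gel its log2 difference was -0.33 and was not called. The 2 other subunits of the same catalytic sector, ATP6V1B2 and ATP6V1H, were not called on either substrate.

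**Figure D2:**
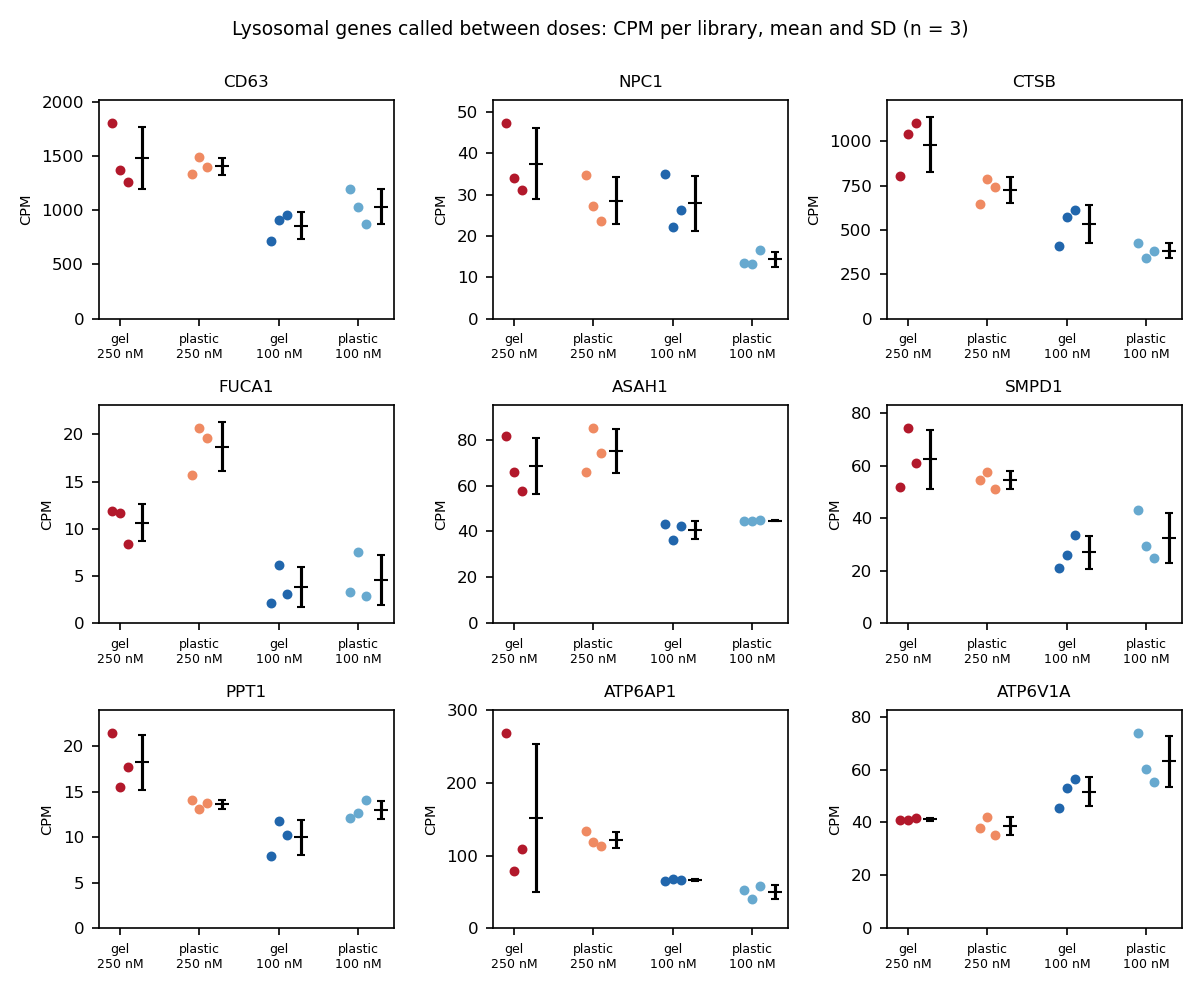
CPM of the 9 lysosomal genes called between doses, with 1 point per library (n = 3 a group) and the mean and SD as bars, in the order gel 250 nM, plastic 250 nM, gel 100 nM, plastic 100 nM. ATP6V1A is lower at 250 nM, the other 8 are higher on at least 1 substrate, and gel 250 nM replicate 1 sets the wide bar of ATP6AP1.

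With the counts of the 100 nM libraries thinned to the depth of the 250 nM libraries, 6 lysosomal genes were called on plastic and 7 on the gel. Over the alternative analyses given below, calls among all genes ran from 118 to 3173 on plastic and from 516 to 2925 on the gel. The calls between doses depended on single libraries. On plastic the 6 calls became 11 without gel 250 nM replicate 1, 3 without plastic 100 nM replicate 1, 1 without plastic 100 nM replicate 2, 3 without plastic 250 nM replicate 1 and 0 without plastic 250 nM replicate 2 or 3. On the gel the 7 calls became 2 without gel 100 nM replicate 1, 4 without gel 100 nM replicate 2 or 3, 4 without plastic 250 nM replicate 2 or 3 and 3 without gel 250 nM replicate 1. Those 3 were CTSB, ASAH1 and SMPD1. The calls over all genes moved as well. On plastic they were 1061 with all libraries, and 2228 without gel 250 nM replicate 1, 650 and 513 without plastic 100 nM replicate 1 or 2, and 859, 118 and 127 without plastic 250 nM replicate 1, 2 or 3. On the gel they were 1703 with all libraries, and 679, 814 and 1030 without gel 100 nM replicate 1, 2 or 3, 1295 and 1312 without plastic 250 nM replicate 2 or 3, and 1322 without gel 250 nM replicate 1. Without gel 250 nM replicate 1 the log2 difference of ATP6AP1 on the gel was 0.47 (adjusted p 0.137), that of CD63 0.59 (adjusted p 0.0523), that of PPT1 0.70 (adjusted p 0.108) and that of FUCA1 1.33 (adjusted p 0.0953).

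The second question was how the 45 genes differed between the 2 kPa gel and plastic at the same dose. No lysosomal gene was called at either dose or averaged over doses by edgeR's quasi-likelihood test. At 100 nM 22 of the 43 log2 differences were positive with a median of 0.01, against -0.01 over all genes. At 250 nM 31 of 43 were positive with a median of 0.19, against -0.02 over all genes. Of all genes, 48.88% were positive at 100 nM and 47.97% at 250 nM. Without gel 250 nM replicate 1, 24 of 44 tested lysosomal genes were positive at 250 nM. In all genes tested, 0.219% were called at 100 nM (0.0649% higher, 0.154% lower), 0.00811% at 250 nM and 0.795% averaged over doses (0.292% higher, 0.503% lower). At an unadjusted p under 0.05 there were 5 of the 43 genes at 100 nM (9.86% of all genes), 8 at 250 nM (9.93% of all genes) and 10 averaged over doses (12.4% of all genes). The groups did not overlap in 8 of the 43 genes at 100 nM and in 11 at 250 nM, where 19% and 15.1% of all genes did not overlap. DESeq2 called 1 of the genes at 100 nM, 2 at 250 nM and 4 averaged over doses, and limma-voom with sample weights called 2, 3 and 6. Both methods also called more of all genes than edgeR in each of these comparisons. Over the alternative analyses given below, calls among all genes ran from 5 to 447 at 100 nM, 0 to 181 at 250 nM and 38 to 801 averaged. The summed fibroblast markers were at 3883 to 4391 TPM in gel 250 nM and 4840 to 5434 in plastic 250 nM. At 100 nM they were at 4236 to 5580 TPM on the gel and 4997 to 6048 on plastic. At 100 nM DCN averaged 87.7 TPM on the gel and 454 on plastic, and LUM 14.8 and 73.0. FN1, at 2635 and 1995, and VIM, at 1687 and 1650, were higher on the gel. Their part in the gel differences was not tested.

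At 250 nM the proton pump genes all had positive log2 differences, 7 of 7, with a median of 0.15 and none called. Of all genes tested, 47.97% were positive. In ATP6AP1 the sign rested on gel 250 nM replicate 1, at 268 CPM. Its replicates 2 and 3, at 78.2 and 109, lay below the plastic 250 nM libraries, at 134, 118 and 113. ATP6V1H measured 115, 72.3 and 84.3 CPM in gel 250 nM and 77.8, 93.9 and 96.2 in plastic 250 nM. The largest log2 differences were those of ATP6V0D1 and ATP6V0C, subunits of the membrane sector. ATP6V0D1 (chr16:67438014-67481237, minus strand) measured 78.7, 27.7 and 35.0 CPM in gel 250 nM, 24.8, 7.98 and 11.4 in plastic 250 nM, 31.9, 27.5 and 26.1 in gel 100 nM and 27.9, 22.8 and 22.0 in plastic 100 nM. The 250 nM groups did not overlap, with replicate 1 the highest library of each, and the 100 nM groups did. The log2 difference was 1.68 (SE 0.42, 3.20-fold, adjusted p 0.213) at 250 nM, and without gel 250 nM replicate 1 it was 1.07 (adjusted p 0.439). ATP6V0C measured 1396, 635 and 674 CPM in gel 250 nM, 530, 315 and 385 in plastic 250 nM, 793, 586 and 618 in gel 100 nM and 579, 515 and 485 in plastic 100 nM. The gel libraries were above the plastic libraries at each dose. The log2 difference was 1.14 (SE 0.29, 2.199-fold, adjusted p 0.215) at 250 nM, and 0.66 (adjusted p 0.435) without gel 250 nM replicate 1. ATP6V0D1 and ATP6V0C were each called at 250 nM in 3 of 23 alternative analyses. ATP6V0C shares 57.5% of its exon bases with AC093525.2 on the same strand, which had a mean of 0.0 counts.

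MCOLN1 had the widest log2 difference at 250 nM, 3.25 (SE 1.28, adjusted p 0.397), on 24 counts over the gel libraries and 2 over the plastic libraries. The ratio of those counts per scaled library was 11.4, with an exact 95% interval of 2.83 to 99.6. That interval covers counting error only and not the spread between libraries, and 19 of the 24 counts came from replicate 1. At 100 nM its log2 difference had the other sign, -1.43 (SE 0.84, adjusted p 0.609). The largest negative log2 differences at 250 nM were those of CLN3, -1.60 (SE 0.69, adjusted p 0.446), the beta-glucuronidase GUSB, -0.99 (SE 0.46, adjusted p 0.507), and FUCA1, -0.80 (SE 0.43, adjusted p 0.565). With 1 library left out at a time, that of CLN3 ran from -2.13 to -1.01 and that of MCOLN1 from 1.87 to 6.81. CLN3 and FUCA1 had groups that did not overlap, and GUSB has related pseudogenes, of which GUSBP1 had a mean of 22.4 counts.

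At 100 nM the largest positive log2 differences were those of CTSS, 2.13 (SE 0.93, adjusted p 0.483), NPC1, 0.96 (SE 0.25, adjusted p 0.182), and IDS, 0.86 (SE 0.33, adjusted p 0.433). In CTSS the value rests on gel 100 nM replicate 1, since without that library the log2 difference was 0.02. In NPC1, every gel library at 100 nM exceeded every plastic library, as the values above show. It was called at 100 nM in 2 of 23 alternative analyses. The largest negative log2 differences beside MCOLN1 were those of ARSB, -0.997 (SE 0.49, adjusted p 0.529), and NPC2, -0.43 (SE 0.19, adjusted p 0.496). ARSB had 152 counts in plastic 100 nM replicate 1 and 44 and 41 in replicates 2 and 3, and without replicate 1 its log2 difference was -0.23. That of NPC2 was -0.28 without gel 100 nM replicate 1.

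Averaged over the doses, 3 of the 43 genes had gel libraries that did not overlap the plastic libraries at either dose, or 6.98%, where 3.18% of all genes did so in the same direction at both doses. CTSD and ATP6V0C were higher and NPC2 lower on the gel. CTSD (chr11:1752752-1764573, minus strand), the main aspartic protease of the lysosome, measured 346, 134 and 132 CPM in gel 250 nM, 128, 69.0 and 86.4 in plastic 250 nM, 175, 132 and 148 in gel 100 nM and 126, 97.6 and 119 in plastic 100 nM. Its average log2 difference was 0.76 (SE 0.24, 1.69-fold, adjusted p 0.182), and 0.44 without gel 250 nM replicate 1. CTSD shares 41.7% of its exon bases with AC068580.4 on the same strand, which had a mean of 7.5 counts. NPC2, the soluble partner that hands cholesterol to NPC1, measured 59.5, 77.2 and 75.01 CPM in gel 250 nM, 83.2, 87.3 and 97.4 in plastic 250 nM, 43.5, 63.1 and 61.2 in gel 100 nM and 77.9, 83.3 and 65.4 in plastic 100 nM. NPC2 was below and NPC1 above the plastic level at 100 nM, and neither difference passed the test.

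The lowest adjusted p averaged over doses was that of NPC1, 0.095 by edgeR, with a log2 difference of 0.68 (SE 0.18). ATP6V0D1 had the largest average log2 difference among proton pump genes, 0.96 (SE 0.28, adjusted p 0.144). Those of CTSS and MCOLN1 were 1.28 (SE 0.85, adjusted p 0.590) and 0.91 (SE 0.79, adjusted p 0.708). The lowest averages were those of CLN3, -0.85 (SE 0.44, adjusted p 0.461), GUSB, -0.67 (SE 0.31, adjusted p 0.400), and FUCA1, -0.52 (SE 0.31, adjusted p 0.518). Single libraries moved several of these averages. Without gel 250 nM replicate 1 that of MCOLN1 was 0.22, and without plastic 250 nM replicate 2 it was 2.69. The average of CTSS was 0.22 without gel 100 nM replicate 1. That of CLN3 was -0.56 without plastic 250 nM replicate 1, and that of FUCA1 ran from -0.79 without gel 100 nM replicate 2 to -0.25 without plastic 100 nM replicate 2. LAMP1, whose protein is a standard lysosome marker, measured 221, 167 and 172 CPM in gel 250 nM, 179, 183 and 195 in plastic 250 nM, 126, 130 and 144 in gel 100 nM and 210, 106 and 138 in plastic 100 nM. Its average log2 difference was -0.09 (SE 0.16, adjusted p 0.890), and without plastic 100 nM replicate 1, its highest plastic library, it was 0.08 (adjusted p 0.881). GLB1, which encodes the enzyme behind the senescence stain and is not among the 45 genes, averaged 67.9 ± 1.10 CPM in gel 250 nM, 66.2 ± 5.93 in plastic 250 nM, 48.1 ± 3.74 in gel 100 nM and 46.0 ± 12.7 in plastic 100 nM (SD, n = 3 each). Its average gel over plastic log2 difference was 0.05 (SE 0.14, adjusted p 0.936), and its difference between doses was 0.49 (adjusted p 0.111) on the gel and 0.52 (adjusted p 0.117) on plastic.

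**Figure D3:**
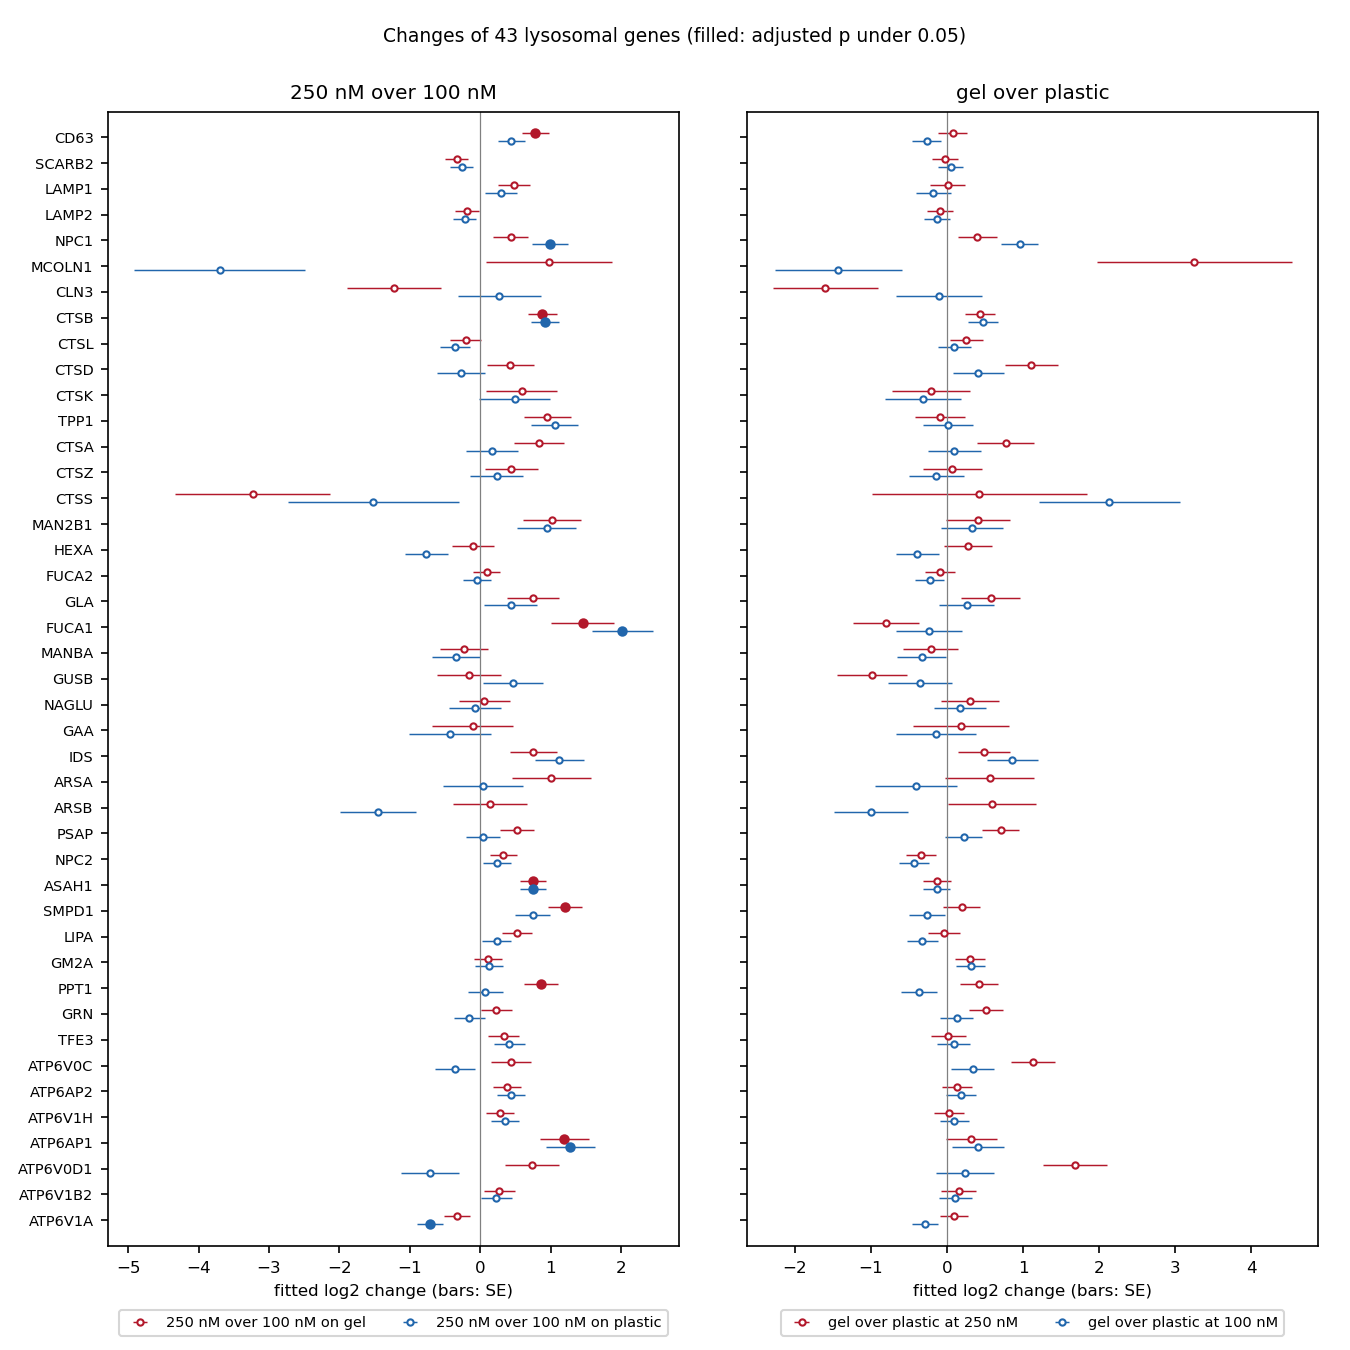
Fitted log2 change of the 43 tested lysosomal genes with its SE, for 250 over 100 nM on each substrate (left) and gel over plastic at each dose (right), with filled points where the adjusted p was under 0.05. Filled points occur only between doses, and the widest bars belong to MCOLN1 and CTSS, which have few counts in some groups.

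Whether the gel difference itself depended on the dose was tested as the difference of the 2 log2 differences, 250 nM minus 100 nM. No lysosomal gene and 0% of all genes were called by edgeR, 3 of the 43 genes had an unadjusted p under 0.05 (6.25% of all genes), and DESeq2 and limma-voom called 0 of the 43. The same test compares the dose change between substrates, so the genes called on 1 substrate only were not shown to differ between substrates. The largest values were those of MCOLN1, 4.68 (SE 1.53), ARSB, 1.59 (SE 0.75), and ATP6V0D1, 1.45 (SE 0.56), each with an adjusted p of 0.755. The lowest were those of CTSS, -1.71 (SE 1.73, adjusted p 0.839), CLN3, -1.49 (SE 0.89, adjusted p 0.758), and GUSB, -0.63 (SE 0.62, adjusted p 0.837). With 1 library left out at a time, these ran from 3.30 to 8.24 for MCOLN1, 0.83 to 1.94 for ARSB, 0.83 to 2.04 for ATP6V0D1, -2.29 to 0.41 for CTSS, -2.01 to -0.89 for CLN3 and -0.94 to -0.31 for GUSB.

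The values of the gel 250 nM group were moved by its replicate 1. The log2 CPM of that library minus the mean of replicates 2 and 3 was 2.12 for MCOLN1, 1.60 for CTSK, 1.54 for ATP6AP1, 1.40 for MAN2B1, 1.38 for CTSD and 1.33 for ATP6V0D1, and -2.21 for CLN3. Its median was 0.25 over the 43 genes and -0.06 over all genes with a known GC content. Each set of genes was also cut into its own 3 equal classes of GC content. From low to high, the median was -0.01, 0.25 and 0.95 in the lysosomal genes and -0.42, -0.15 and 0.34 in all genes. The median GC content was 50.69% in the lysosomal genes and 47.85% in all genes. The classes of the 2 sets thus cover different GC ranges and do not compare genes of equal GC content. Across the 43 genes, the difference and the GC content had a Pearson r of 0.184 and a Spearman rho of 0.198, against 0.271 and 0.2998 across 12227 genes, with genes sharing the same libraries. Without this library the median gel over plastic log2 difference of the same 43 genes at 250 nM was 0.07 where it was 0.19 with it, and the median dose difference on the gel was 0.16 where it was 0.44 with it. With each library's GC trend removed, the same medians were 0.15 and 0.34, and 8 lysosomal genes were called on the gel and 4 on plastic between doses, where 1578 and 1146 of all genes were called. The part of the low share of ribosomal repeat reads in these values was not tested further.

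**Figure D4:**
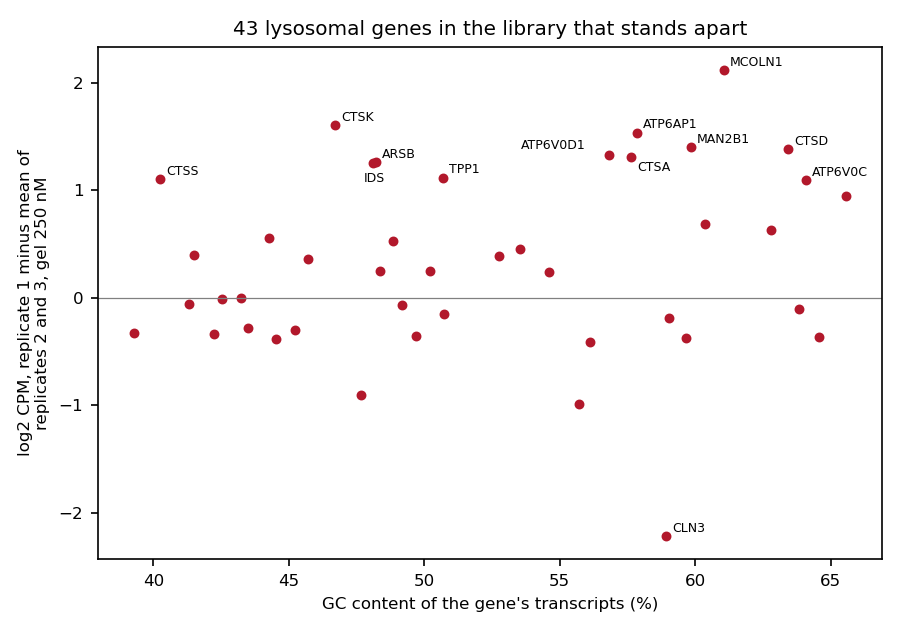
Log2 CPM of gel 250 nM replicate 1 minus the mean of replicates 2 and 3 for the 43 tested lysosomal genes, against the GC content of their transcripts in percent, with genes named where the difference exceeds 1. MCOLN1 at 2.12 and CLN3 at -2.21 are the extremes, and 12 of the 13 named genes lie above zero.

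The 9 genes with an E-box in the window, which include the 4 whose windows are printed above, had a median gel over plastic log2 difference of 0.59 at 250 nM, against 0.19 in 21 tested genes with a window but no E-box. At 100 nM the order was the other way, with medians of -0.14 with and 0.09 without an E-box, and averaged over doses they were 0.02 and 0.05. Without gel 250 nM replicate 1, where 22 genes without an E-box were tested, the medians at 250 nM were 0.23 and 0.06. The E-box genes had a median GC content of 57.6% and the others of 49.7%, so promoter element and GC content moved together. Between doses the medians were 0.49 with and 0.44 without an E-box on the gel, and -0.27 and 0.41 on plastic. Without gel 250 nM replicate 1 the dose medians on the gel were 0.0095 with and 0.37 without an E-box, so that library set their order. The part of the E-box in these values was not tested.

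Seen by library, the lysosomal genes did not move as 1 block. In the map of deviations from each gene's mean, gel 250 nM replicate 1 stands out by MCOLN1, CTSD, CTSA, MAN2B1, IDS, ATP6AP1 and ATP6V0D1 above and CLN3 below their means. FUCA1 is high in plastic 250 nM and low in 100 nM libraries, whereas NPC1 is lowest in plastic 100 nM.

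**Figure D5:**
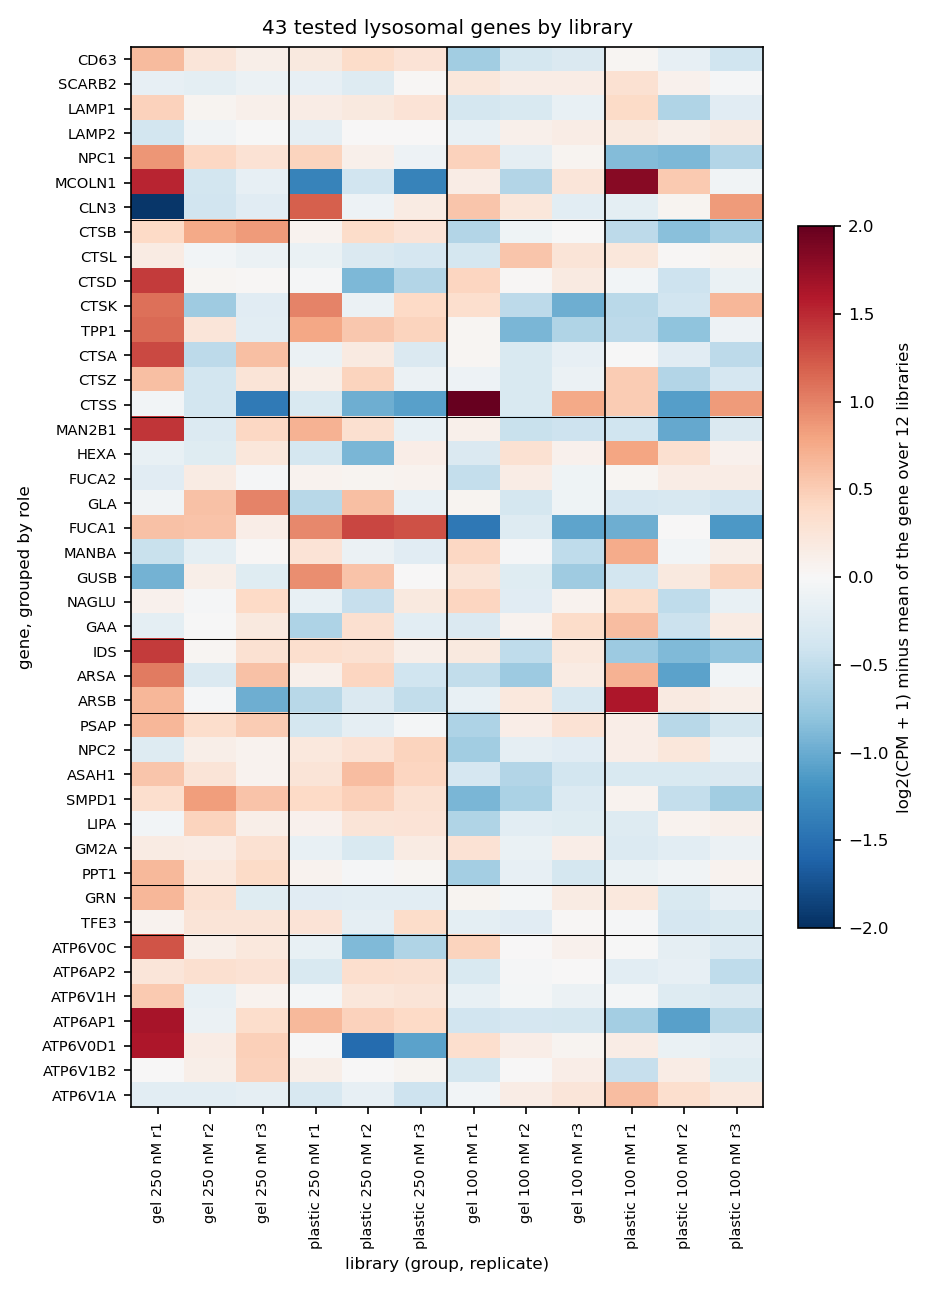
Deviation of log2(CPM + 1) from the gene's mean over 12 libraries for the 43 tested lysosomal genes (rows, by role) in every library (columns, by group), red above and blue below the mean. Columns of 1 group differ from each other in many rows, most of all in gel 250 nM replicate 1.

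Lysosomal genes outside the 45 were followed by 4 further lists. Of 31 other hydrolase genes 26 were tested, and between doses 7 were called on the gel, 6 higher and 1 lower, and 6 on plastic, 5 higher and 1 lower. For these and the other lists, the share of all genes called between doses was 13.8% on the gel and 8.61% on plastic. Those named are the 3 with the lowest p in each comparison. MAN2B2, an alpha-mannosidase, averaged 52.7 ± 7.42 CPM in gel 250 nM and 19.9 ± 4.10 in gel 100 nM, and 59.5 ± 18.5 in plastic 250 nM and 17.6 ± 0.963 in plastic 100 nM. It rose by 1.40 log2 units on the gel (SE 0.25, adjusted p 0.00563) and by 1.75 on plastic (SE 0.25, adjusted p 0.00333). GALNS, a sulfatase of keratan sulfate breakdown, and NEU1, the lysosomal sialidase, rose on the gel by 1.09 (SE 0.24, adjusted p 0.0119) and 0.75 (SE 0.20, adjusted p 0.0251). PLBD2 and HGSNAT, the transferase of heparan sulfate breakdown, rose on plastic by 1.09 (SE 0.24, adjusted p 0.0152) and 0.79 (SE 0.18, adjusted p 0.0198). The single hydrolase called between gel and plastic, averaged over doses, was CTSC, the dipeptidyl peptidase that activates granule proteases, which was lower on the gel. Of all genes tested, 0.795% were called in that comparison, 0.503% lower. CTSC averaged 31.1 ± 7.401 CPM in gel 250 nM and 45.6 ± 6.69 in plastic 250 nM, and 39.3 ± 11.6 in gel 100 nM and 89.0 ± 19.9 in plastic 100 nM, a log2 change of -0.86 (SE 0.18, adjusted p 0.0442).

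Of 17 other lysosomal membrane genes 15 were tested, and 2 were called, both higher at 250 nM on the gel. LAPTM4A rose by 0.97 (SE 0.28, adjusted p 0.0329) and the sialic acid exporter SLC17A5 by 0.89 (SE 0.26, adjusted p 0.0344). Of 14 other proton pump genes 11 were tested. ATP6V0E1 rose at 250 nM on the gel by 0.91 (SE 0.24, adjusted p 0.0243) and on plastic by 1.01 (SE 0.24, adjusted p 0.0211), and ATP6V1F on the gel by 0.71 (SE 0.22, adjusted p 0.0459). Of 15 genes of mTORC1 and TFEB control 14 were tested, with 4 called on the gel, 3 higher and 1 lower, and 3 on plastic, 2 higher and 1 lower. LAMTOR5, a subunit of the Ragulator scaffold that holds mTORC1 at the lysosome, rose on both substrates, by 1.10 on the gel (SE 0.22, adjusted p 0.00842) and 0.79 on plastic (SE 0.22, adjusted p 0.0415). RRAGC, a Rag GTPase of the same site, fell on both, by 0.83 on the gel (SE 0.20, adjusted p 0.0176) and 0.74 on plastic (SE 0.20, adjusted p 0.0372). LAMTOR2 rose on the gel by 1.71 (SE 0.46, adjusted p 0.0284), and MITF, a relative of TFEB, rose on plastic by 0.69 (SE 0.19, adjusted p 0.0399). None of these 3 lists had a gene called between gel and plastic in the 3 gel comparisons by edgeR.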

How the data were processed

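RNA of 12 libraries was sequenced by the submitters, and 1 gene table per library was deposited. Per the submitters' processing notes, Trimmomatic, STAR, RSEM and DESeq2 1.36.0 were used with GRCh38. The expected counts and the TPM values are as deposited, per the file headers in the layout of RSEM. FPKM values were also deposited and were not used. The strand setting is not given in the sources used here. Gene names came from GENCODE 29, which named 61528 of 61541 identifiers. Groups were read from the titles.

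The members and lists were chosen with earlier results of these data known. Expected counts were rounded and fitted with edgeR 4.0.16 in R 4.3.3 (filterByExpr, TMM scaling, robust glmQLFit and glmQLFTest) as 4 group means over 12 libraries, with 8 residual degrees of freedom. The common biological coefficient of variation was 0.299. Altogether 6 comparisons were tested, each adjusted by Benjamini-Hochberg over 12329 genes, and DESeq2 1.42.0 and limma 3.58.1 served as alternatives, with 1 or 0.1 added to TPM before the log2. The model was tested on simulated data with 200 changed genes in each comparison, 50 of them changed 2-fold. They were drawn from genes above a set mean level, which MCOLN1, CLN3 and GAA did not reach. Between gel and plastic it recovered 26% of the 2-fold genes at 100 nM, 12% at 250 nM and 58% averaged over doses. Between doses it recovered 26% on plastic and 12% on the gel, and for the difference of the gel effect 2%. Between doses more genes were called in the data, 1061 and 1703, so recovery there can differ. A gene that was not called can therefore still differ.

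Values in every library are given for genes called in any comparison. Statistics are given for called genes and for the 3 largest log2 differences each way among genes of at least 1 CPM. LAMP1, CTSD, GLB1 and TFEB are named whatever their values, as are up to 3 called genes of each related list. Library values of uncalled genes (MCOLN1, CTSS, CTSD, NPC2, LAMP1, ATP6V0C, ATP6V0D1 and ATP6V1H) were added after their values were seen. The statistics of TPP1, and of SMPD1 and CD63 on plastic, were also added then. So were the statistics of NPC1 averaged over doses. Deviations from the group mean correlated at -0.236 to 0.141 between same-numbered libraries of gel and plastic. With 3 libraries a group, such values cannot settle whether replicate numbers mark pairs. The labels do not say, and no pairing was used.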

Additional observations from a re-analysis of the deposited data

How the results depend on the processing

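The 6 comparisons were repeated under 23 alternatives, of which 12 left out 1 library each. Leaving out the libraries low in ribosomal repeat reads and removing the GC trend were chosen after seeing the data. Comparisons are given in the order gel over plastic at 100 nM, at 250 nM and averaged, then 250 over 100 nM on plastic and on the gel. The test as reported called 27, 1, 98, 1061 and 1703 of all genes, 0, 0, 0, 6 and 7 lysosomal genes. Without a filter on low counts, 231, 181 and 468 genes were called between gel and plastic and 63 for the difference between doses, with 3 lysosomal genes at 250 nM and 3 averaged. DESeq2 called 158, 93, 385 and 1667 genes in the first 4, with 1, 2, 4 and 10 lysosomal genes. Limma-voom with sample weights called 447, 161, 801, 3173 and 2925 genes, with 2, 3, 6 and 16 lysosomal genes in the first 4. Limma-trend on log2(TPM + 1) called 7, 3, 53 and 701 genes in the first 4, with 3 lysosomal genes on plastic and 2 on the gel, and a lysosomal median of 0.0310 on plastic. On log2(TPM + 0.1) it called 9, 4, 44 and 594, with 1 and 3 lysosomal genes and a median of 0.0332. The compared groups alone called 10, 0, 1693 and 516 genes (100 nM, 250 nM, plastic, gel), with 1 lysosomal gene on the gel. The thinned 100 nM libraries called 15 and 2 genes between gel and plastic at 100 and 250 nM. Without the 2 libraries low in ribosomal repeat reads, 69, 9, 249 and 2143 genes were called in the first 4, with 1 lysosomal gene averaged and 11 on plastic, and lysosomal medians of 0.18 at 100 nM, -0.0418 for the difference and 0.17 for dose on the gel. Removing the GC trend called 5 genes at 250 nM. The cause of these shifts was not tested.

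The replicate block called 10 genes at 100 nM, 41 averaged, 479 on plastic and 765 on the gel, with 1 lysosomal gene averaged, 3 on plastic and 2 on the gel. Whether the numbers mark pairs is not stated in the labels.

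Leaving out 1 library at a time, genes called ranged from 5 to 119 at 100 nM, 1 to 6 at 250 nM, 38 to 262 averaged, 118 to 2228 on plastic and 679 to 1861 on the gel. Lysosomal calls stayed at 0 between gel and plastic and ranged from 0 to 11 on plastic and 2 to 8 on the gel. Lysosomal medians ranged from -0.0185 to 0.17, 0.07 to 0.26, 0.01 to 0.11, 0.09 to 0.27 and 0.16 to 0.48, and from 0.01 to 0.26 for the difference.

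Of 1047 values of single genes under an alternative, 910 kept direction and call, 101 lost the call, 30 gained one and 6 changed sign. The 6 were LAMP1 averaged without plastic 100 nM replicate 1 (0.0752, range -0.188 to 0.0752 over single libraries left out), GLB1 averaged without plastic 100 nM replicate 3 (-0.0172, range -0.0172 to 0.177), GUSB under voom (0.14) and CTSS without gel 100 nM replicate 1 (0.406, range -2.29 to 0.406) for the difference, and SCARB2 between doses on the gel on both TPM scales (0.18 and 0.18). None of these 6 was called in either form. MCOLN1, TFEB, IDUA and GAA had groups with few counts, as had CTSS at 250 nM. Depth differed between the 250 and 100 nM libraries in all comparisons of dose. Beyond the thinning above, its part in them was not tested.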

Other observations

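Of 10 genes that sort enzymes to the lysosome, all 10 were tested, and 1 was called between gel and plastic averaged over doses. Of all genes tested, 0.795% were called in that comparison, 0.503% lower. SORT1, which encodes the sorting receptor sortilin, averaged 18.6 ± 3.95 CPM in gel 250 nM and 36.8 ± 5.06 in plastic 250 nM, and 13.9 ± 4.34 in gel 100 nM and 26.4 ± 3.35 in plastic 100 nM (SD, n = 3 each). It fell on the gel by 0.95 on the log2 scale (SE 0.18, adjusted p 0.0283 by edgeR), and the gel libraries averaged below plastic at both doses. Between doses SUMF1, the activator of sulfatases, rose by 1.03 on the gel (SE 0.23, adjusted p 0.0122) and 1.38 on plastic (SE 0.23, adjusted p 0.00476). M6PR, a mannose 6-phosphate receptor, fell on the gel by 1.22 (SE 0.31, adjusted p 0.0213), and GGA3, an adaptor of that receptor, rose on plastic by 1.01 (SE 0.26, adjusted p 0.0325).

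Of 17 autophagy genes, all 17 were tested and 0 were called between gel and plastic in the 3 comparisons by edgeR. Between doses GABARAPL1 rose on the gel by 1.10 (SE 0.29, adjusted p 0.0256), and WIPI2 and BECN1 rose on plastic by 0.68 (SE 0.20, adjusted p 0.0477) and 0.60 (SE 0.18, adjusted p 0.0487). BECN1 averaged 152 ± 11.8 CPM in plastic 250 nM and 100.2 ± 16.9 in plastic 100 nM.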
